A study of Rattus norvegicus with 71 samples.

Results

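Psmb8, Psmb9, Psmb10, Tap1 and Tap2 encode the 3 inducible catalytic subunits of the immunoproteasome and both subunits of the transporter that carries its peptides into the endoplasmic reticulum. All probes annotated to these 5 genes were taken, 6 probes in all, of 13337 genes that the probe annotation names, 9642 of which passed the detection filter. All 6 probes were detected on all 71 arrays. The arrays measured RNA of whole lung from rats of 3 inbred strains, Lewis, Fisher and Brown Norway, killed at postnatal day 1, 7 or 14 (PN1, PN7 and PN14) after exposure in utero to saline or to ovalbumin, an egg-white protein used as an allergen. The saline groups of each strain and day were the controls, and no genotype other than the strain was given. Each of the 18 groups had 4 arrays, labelled a to d, except Fisher PN7 saline, which had 3. No litter, sex or animal was given, so the p-values measure only the spread between these samples. Whole lung mixes epithelium, vessels, stroma and blood cells, and in such tissue fewer cells of a type and less RNA per cell cannot be told apart.

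The proteasome is a barrel of stacked rings that cuts proteins into short peptides. In immune cells, and in other cells after interferon, Psmb9 (LMP2), Psmb10 (MECL1) and Psmb8 (LMP7) are built in place of the constitutive catalytic subunits Psmb6, Psmb7 and Psmb5, which changes the peptides that are made. Tap1 and Tap2 form the channel that pumps those peptides into the endoplasmic reticulum, where tapasin and its partners load them onto MHC class I molecules for display to CD8 T cells.

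In the RefSeq annotation of the rat genome, build GRCr8, 4 of the genes are neighbours in the MHC class II region of chromosome 20, and no other protein-coding gene lies in the 36.2 kb that hold them. Tap2 (entrez gene 24812) lies at chr20:4638257-4652296 on the minus strand. Psmb8 (24968) follows at chr20:4654068-4657049 and Tap1 (24811) at chr20:4658171-4668543, both also on the minus strand. Psmb9 (24967) lies at chr20:4668952-4674421 on the plus strand and faces Tap1. The RefSeq start site used for its promoter window is base 4669000, inside that span and 457 bp from the start site of Tap1. Psmb10 (291983) stands alone at chr19:50740808-50743292 on the minus strand. The deposited tables do not give the part of each transcript that a probe binds, and whether a probe binds the alleles of the 3 strains equally was not tested.

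Promoter windows from RefSeq, 250 bases before to 50 after a start site, were found for all 5 genes. They are shown because interferon-responsive genes often carry a repeat of GAAA in such windows, the interferon-stimulated response element. A pair of GAAA with any 2 bases between them, searched on both strands, stood in the windows of 4 of the 5 genes and in 3.92% of 33365 rat windows of the same length. Capitals mark the match with its 2 free bases, which reads as a pair of TTTC where it lies on the other strand. For Psmb9, whose window had no such match, the capitals mark the GC box GGGCGG nearest the start site. Each stretch runs 5′ to 3′ on the strand of its gene.
Psmb8, chr20:4657022-4657081, minus strand, bases -50 to 10 from the start site: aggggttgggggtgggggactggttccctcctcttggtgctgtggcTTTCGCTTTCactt
Psmb9, chr20:4668948-4669007, plus strand, bases -52 to 8: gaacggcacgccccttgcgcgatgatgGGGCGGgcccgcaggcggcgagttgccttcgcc
Psmb10, chr19:50743288-50743377, minus strand, bases -85 to 5, with 2 matches: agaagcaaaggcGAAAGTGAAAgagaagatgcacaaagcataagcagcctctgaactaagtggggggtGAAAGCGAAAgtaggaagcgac
Tap1, chr20:4668630-4668689, minus strand, bases -146 to -87: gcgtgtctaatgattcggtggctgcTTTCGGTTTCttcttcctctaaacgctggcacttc
Tap2, chr20:4652303-4652362, minus strand, bases -66 to -7: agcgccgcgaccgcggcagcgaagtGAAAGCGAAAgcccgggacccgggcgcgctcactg

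Counted from the start site, the first letter of the match lay at base -4 for Psmb8, -73 and -17 for Psmb10, -121 for Tap1 and -41 for Tap2. Other sets of letters were searched on both strands, with the windows in view, and 2 are given here. GGG and TTTCC with any 2 bases between them, an NF-kappaB type site, stood in the Tap1 window and in 1.53% of all windows. The GC box stood in the windows of Psmb9 and Tap1 and in 33.14% of all windows. The windows of Tap1 and Psmb9 share 44 bp, because the genes face each other. Such matches are letters in a window and say nothing of which factors bind there.

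The arrays detected between 10128 and 12437 probes each, with a median of 11217. The 7 measured markers of lung epithelium were detected on all 71 arrays. The arrays lay on 6 slides of 11 or 12. The PN14 saline and PN14 ovalbumin arrays lay on different slides. Array a of Lewis PN1 ovalbumin stood apart from its group. Lewis PN1 ovalbumin a had a mean log2 signal of 10.21 over 10 measured T and NK cell markers, against 6.29, 5.73 and 5.89 on arrays b, c and d. Results for Psmb8, Psmb9, Psmb10, Tap1 and Tap2 that rest on this array are given with and without it.

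Levels below are log2 signals after background correction and quantile normalization, and differences are on the same log2 scale. A probe was called where its adjusted p was under 0.05 in limma's moderated test, adjusted over all 14019 probes tested. Each member had a group order of its own. The highest group mean was that of Brown Norway PN14 ovalbumin for Psmb8, Tap1 and Tap2, Brown Norway PN14 saline for Psmb9 and Fisher PN7 saline for Psmb10. The lowest was that of Lewis PN1 saline for every member except Psmb9, whose lowest was Brown Norway PN1 saline. Of the 17 steps between neighbours in the order, 2 were wider than the mean within-group SD for Psmb8 (SD 0.43) and 2 for Tap1 (0.27). No step was wider for Psmb9 (0.40), Psmb10 (0.24) or Tap2 (0.34). The SD is that of single arrays, so the width of a step does not test whether groups differ.

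**Figure D1:**
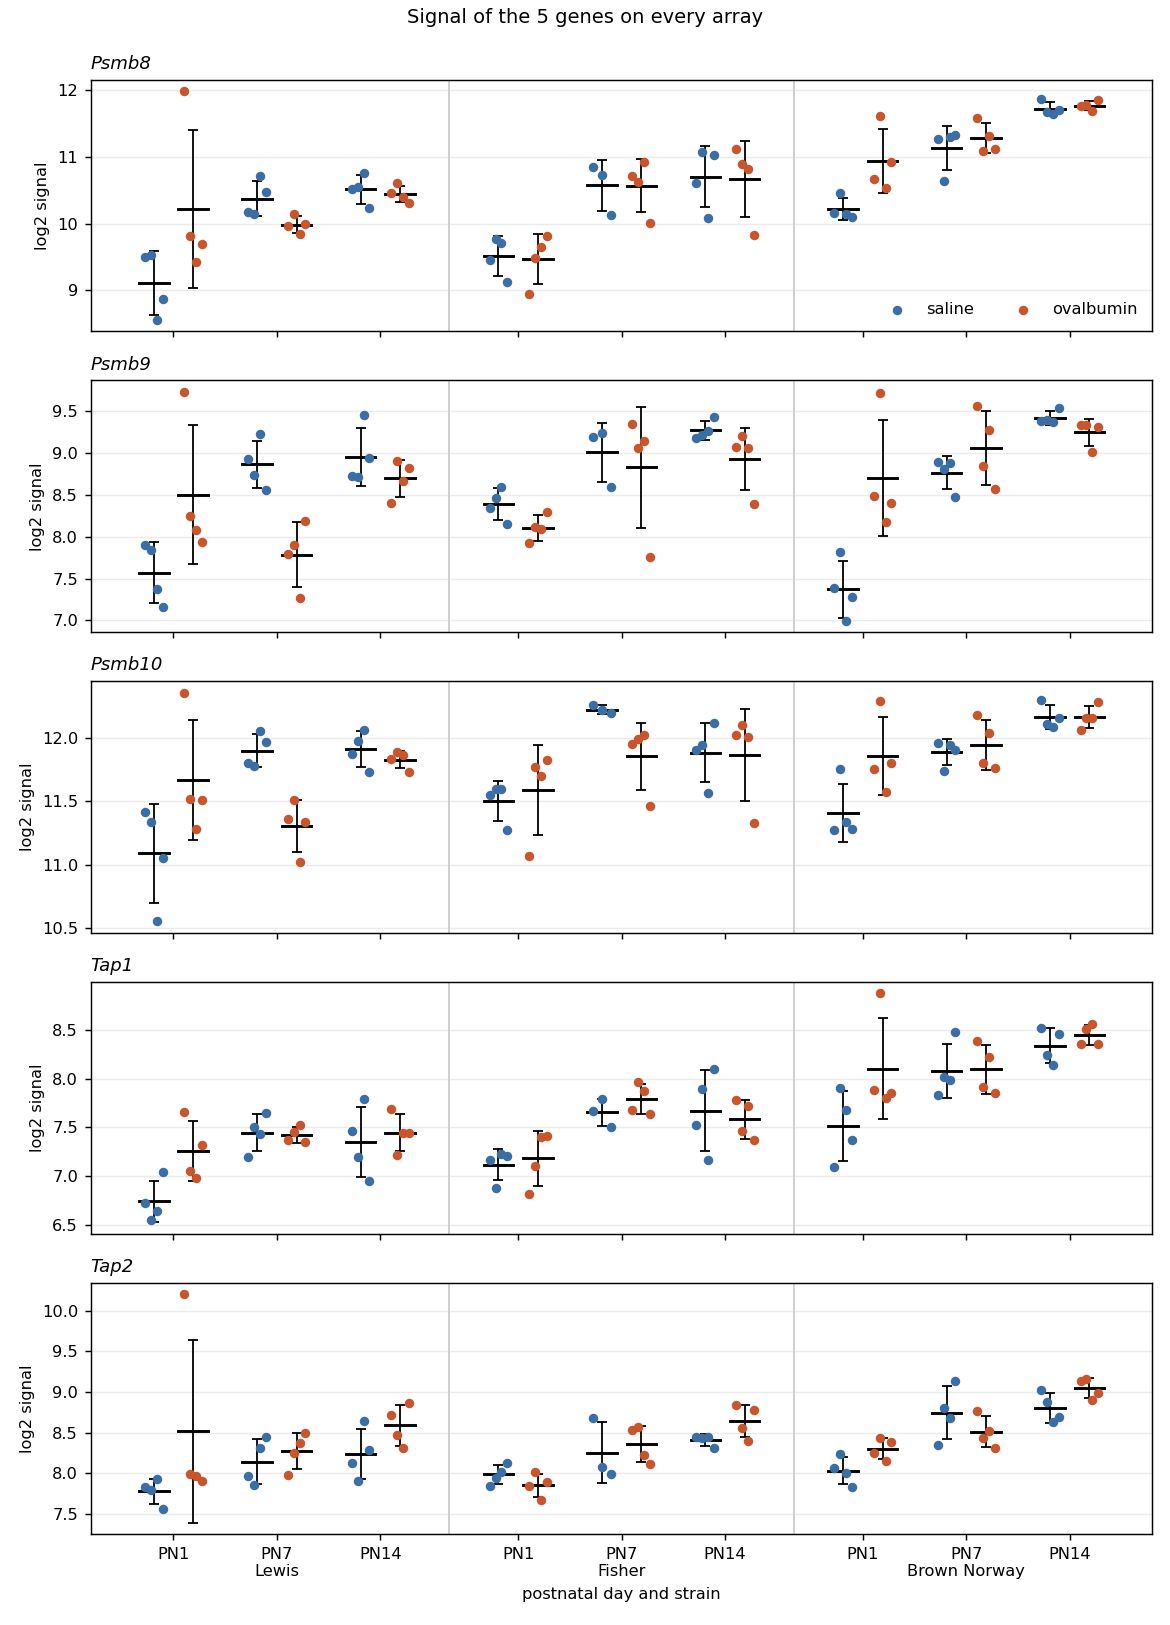
Log2 signal of Psmb8, Psmb9, Psmb10, Tap1 and Tap2 on each of the 71 arrays (y axis, one panel per gene) by strain, day and exposure (x axis). Points are arrays, and bars give the group mean with its SD (n = 4, or 3 in Fisher PN7 saline). The PN1 saline points lie low in each panel, the Brown Norway points lie highest for Psmb8 and Tap1 at PN14, and Lewis PN1 ovalbumin a lies far above its group for Psmb8 and Tap2.

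The first comparison followed the members through the first postnatal weeks in saline lungs. All 5 members rose from PN1 to PN7 on the mean over strains (11 against 12 arrays), a step at which 24.3% of all probes tested were called higher and 47% were called in either direction. Psmb8 rose 2.11-fold, Psmb9 2.15-fold, Psmb10 1.59-fold, Tap1 1.52-fold and Tap2 1.36-fold. None was called from PN7 to PN14.

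Psmb8, the subunit that replaces Psmb5, stood at 9.49, 9.53, 8.56 and 8.88 on the Lewis PN1 saline arrays and at 10.18, 10.14, 10.72 and 10.47 on the Lewis PN7 saline arrays. In Fisher it stood at 9.46, 9.77, 9.71 and 9.12 at PN1 and at 10.86, 10.74 and 10.14 at PN7. In Brown Norway it stood at 10.17, 10.47, 10.14 and 10.11 at PN1 and at 11.27, 10.64, 11.30 and 11.33 at PN7. Within each strain every PN7 array was above every PN1 array, while the pooled groups overlapped because the Brown Norway arrays were high at both days. The mean difference was 1.08 ± 0.17 (SE; 95% interval 0.73 to 1.42, adjusted p = 5.36e-07), and the steps in Lewis (1.26), Fisher (1.06) and Brown Norway (0.91) were all called.

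Psmb9, the subunit that replaces Psmb6, stood at 7.91, 7.84, 7.38 and 7.16 in Lewis PN1 saline and at 8.93, 8.74, 9.23 and 8.56 in Lewis PN7 saline. In Brown Norway it stood at 7.39, 7.82, 7.00 and 7.28 at PN1 and at 8.90, 8.82, 8.88 and 8.48 at PN7. Neither pair of groups overlapped. The Fisher PN1 arrays already stood at 8.35, 8.47, 8.60 and 8.16, and the 3 Fisher PN7 arrays at 9.19, 9.24 and 8.60. The mean step over strains was 1.10 ± 0.16 (SE; 0.78 to 1.43, adjusted p = 1.2e-07), and by strain it was 1.40 for Brown Norway, 1.29 for Lewis and 0.62 for Fisher (adjusted p = 0.114). The saline age profile of Psmb9 was not shown to differ between strains (F test, adjusted p = 0.0951), and 0 of 5 members were called in that test, where 37% of all probes were. Without Lewis PN1 ovalbumin a, which enters only through the spread, Psmb9 was called (adjusted p = 0.0443), as it was with only the groups compared (adjusted p = 0.0101).

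Psmb10, the subunit that replaces Psmb7, rose by 0.67 ± 0.10 (SE; adjusted p = 1.64e-07), and its other probe by 0.69 ± 0.11 (adjusted p = 1.06e-06). In Lewis the main probe stood at 11.42, 11.33, 10.55 and 11.05 at PN1 and at 11.80, 11.78, 12.05 and 11.97 at PN7, without overlap. The Fisher PN7 arrays, at 12.26, 12.22 and 12.20, were the tightest of these groups. Brown Norway overlapped, its PN1 array b (11.75) lying above its PN7 array b (11.74).

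Tap1, a subunit of the transporter, rose by 0.60 ± 0.11 (SE; adjusted p = 1.08e-05). It went from 6.72, 6.55, 6.64 and 7.04 to 7.20, 7.51, 7.43 and 7.65 in Lewis, from PN1 to PN7 in saline and without overlap. Tap2, its partner in the transporter, rose by 0.45 ± 0.14 (SE; adjusted p = 0.00595) on the mean, and of the single strains only the Brown Norway step was called (0.71, adjusted p = 0.0112; 0.37 in Lewis, adjusted p = 0.243; 0.27 in Fisher, adjusted p = 0.465). Among the single strains, 4 members were called higher in Lewis, 3 in Fisher and 5 in Brown Norway, where 14.4%, 13.7% and 19.8% of all probes were.

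Because no slide held saline arrays of both PN1 and PN7, no value within a slide was possible for this step. With slide as a fixed term the steps were 1.07 for Psmb8, 0.94 for Psmb9, 0.61 for Psmb10 and 0.57 for Tap1, all still called, and 0.54 for Tap2 (adjusted p = 0.0921). A single age step could be read within a slide, Lewis PN14 against PN1 saline on slide 1. Psmb8 differed by 1.82 there (adjusted p = 9.81e-05), Psmb9 by 1.46 (adjusted p = 0.00274), Psmb10 by 1.12 (adjusted p = 0.000979) Tap1 by 0.49 (adjusted p = 0.145) and Tap2 by 0.27 (adjusted p = 0.357).

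From PN7 to PN14 in saline, 45% of all probes were called, and 0 of the 5 members. The mean differences were 0.29 for Psmb8 (95% interval -0.06 to 0.63), 0.34 for Psmb9 (0.01 to 0.67, adjusted p = 0.0852), -0.02 for Psmb10 (-0.22 to 0.18), 0.06 for Tap1 (-0.16 to 0.29) and 0.10 for Tap2 (-0.17 to 0.38). For each member the upper bound was below the step from PN1 to PN7.

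In ovalbumin lungs the PN7 against PN1 step was called for 0 of 5 members on the mean over strains, where 31% of all probes were called in either direction. It was 0.40 for Psmb8 (adjusted p = 0.0587) and 0.13 for Psmb9 (adjusted p = 0.581). Without Lewis PN1 ovalbumin a, the step was called for Psmb8 (0.60, adjusted p = 0.000396), Tap1 (0.30, adjusted p = 0.0325) and Tap2 (0.34, adjusted p = 0.00252). In Fisher ovalbumin lungs Psmb8 (1.10, adjusted p = 0.00257), Psmb9 (0.73, adjusted p = 0.0369) and Tap1 (0.60, adjusted p = 0.0111) rose, where 14.6% of all probes were called higher. In Lewis ovalbumin lungs Psmb9 alone was called, and it fell by 0.71 (adjusted p = 0.0497), where 12.4% of all probes were called lower. That call was lost in 7 of 10 other settings, and without Lewis PN1 ovalbumin a the step was -0.30 (adjusted p = 0.477). From PN7 to PN14 in ovalbumin lungs Psmb9 (0.40), Psmb10 (0.25) and Tap2 (0.38) were called higher on the mean, as were 18.3% of all probes. In Lewis alone Psmb9 (0.91) and Psmb10 (0.52) were called at this step, where 15.9% of all probes were called higher. With slide as a fixed term the mean step turned to -0.22 for Psmb9 and -0.49 for Psmb10, and in Lewis it was 0.35 for Psmb9 (adjusted p = 0.633) and -0.19 for Psmb10, none of them called. Slide 6 held PN14 ovalbumin arrays only, so its term rests on Fisher PN14 ovalbumin d, the array of those groups on slide 2.

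**Figure D2:**
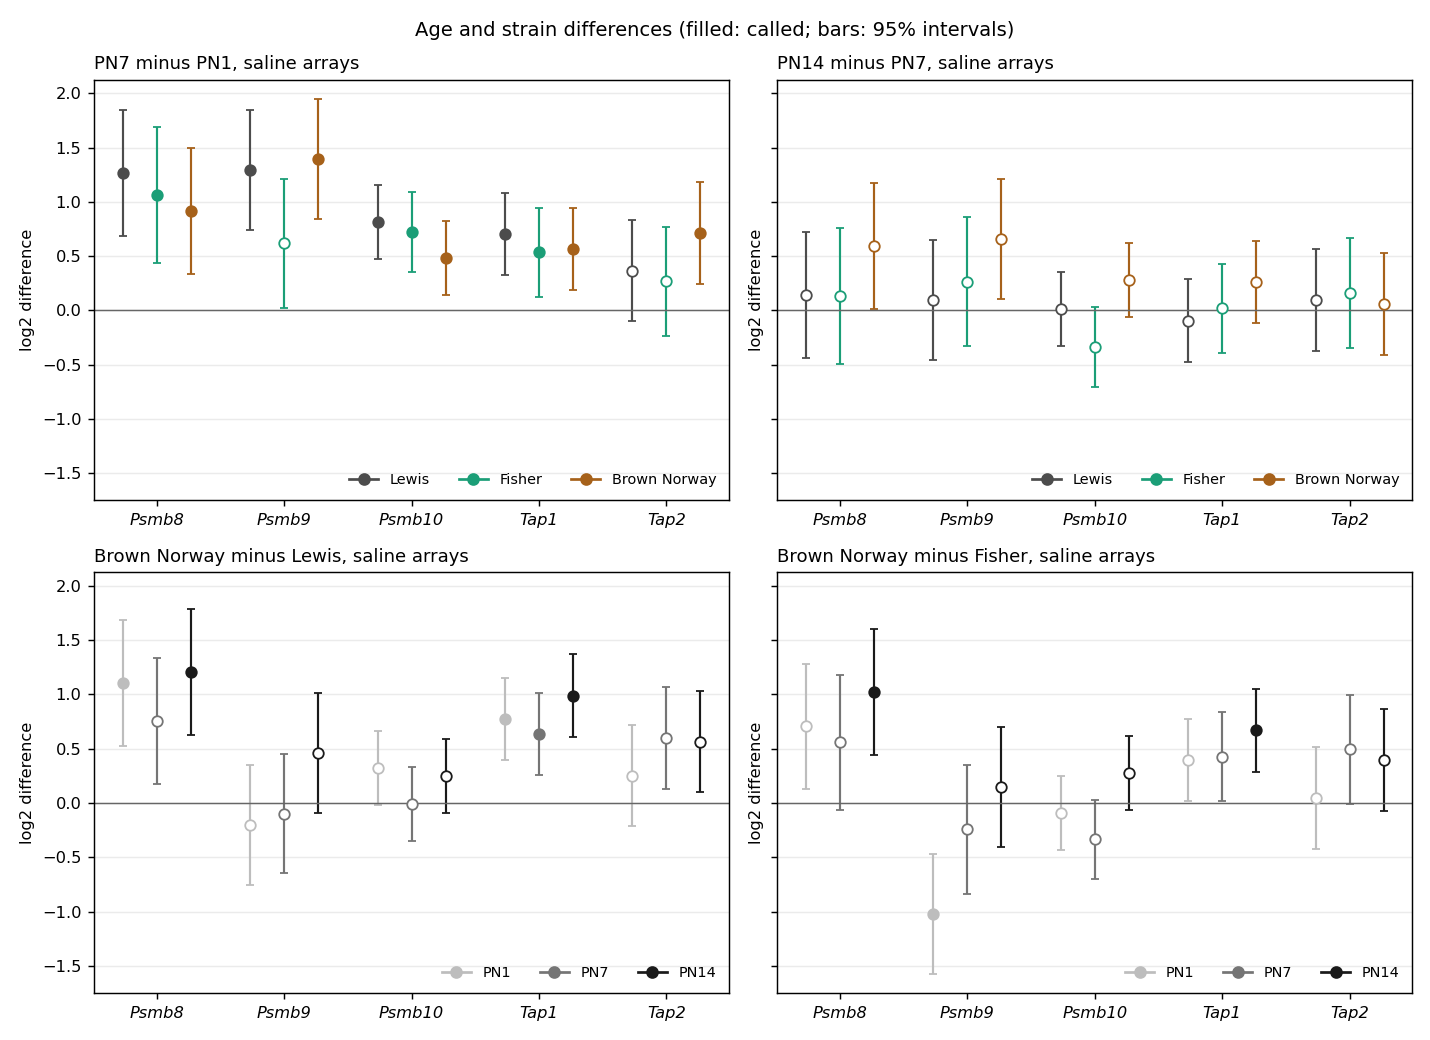
Log2 differences (y axis) of the 5 members (x axis) in saline lungs, for PN7 minus PN1 and PN14 minus PN7 in each strain (upper panels) and for Brown Norway minus Lewis and minus Fisher at each day (lower panels). Points are fitted differences, lines their 95% intervals, and filled points were called: most points are filled from PN1 to PN7 and none from PN7 to PN14, and the lower panels show Psmb8 and Tap1 above 0 at each day and Psmb9 below 0 against Fisher at PN1.

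The genes that work with the members were taken from gene lists. From PN1 to PN7 in saline the constitutive subunits that the members replace also rose, all 3 of 3 (Psmb5 by 0.35, Psmb6 by 0.47, Psmb7 by 0.26). Of the 11 measured other subunits of the barrel 3 rose and 3 fell, with a median of 0.01. Of 6 measured activators and assembly factors 4 rose, among them Psme2 (0.48), a subunit of the PA28 cap, and 1 fell. Of 7 measured genes of peptide trimming and loading 3 rose, among them Tapbp (tapasin, 0.91) and Calr (calreticulin, 0.34), and Erap1, the peptidase that trims peptides to length, fell by 0.49. Of 14 measured MHC class I heavy chains 11 rose and none fell, with a median of 0.51, and RT1-CE5 rose by 1.35. The median of all probes was 0.02.

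Regulators and targets of interferon were mixed at the same step. Of 12 measured regulators 4 rose, among them Irf1 (0.65), a transcription factor induced by interferon gamma, and 1 fell, the kinase Jak2 (by 0.49). Of 12 measured interferon gamma induced genes 7 rose and none fell (median 0.39, Gbp2 1.01), and of 16 measured type I interferon induced genes 5 rose and 4 fell. Among leukocyte markers 4 of 10 T and NK cell genes rose (Cd3g by 1.03, Prf1 by 1.10), as did 3 of 3 B cell genes, and 6 of 6 neutrophil genes fell. The mean log2 signal over the 10 T and NK cell markers lay between 5.39 and 6.71 on the PN1 saline arrays and between 6.48 and 7.26 on the PN7 saline arrays. The part of these cells in the members' rise was not tested.

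From PN7 to PN14 in saline the constitutive subunits fell, 3 of 3 (Psmb5 by 0.62, Psmb6 by 0.40, Psmb7 by 0.35), in a step in which none of the members was called. Of the 7 trimming and loading genes Erap1 (1.04) and B2m (0.56), the light chain of class I molecules, rose, and Tapbp fell by 0.37. Of the 16 type I interferon induced genes 9 rose and 1 fell (median 0.31, Ifi44 1.27), and of the 14 class I heavy chains 3 rose. Of 12 interferon gamma induced genes 4 rose and none fell (median 0.25). T and NK cell genes rose in 4 of 10 (median 0.46) and B cell genes in 3 of 3 (median 0.96), and 4 of 6 neutrophil genes fell. The median of all probes was -0.02.

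The second comparison set the strains side by side in saline lungs. Brown Norway lungs had more Psmb8 and Tap1 signal than those of either other strain, and more Tap2 signal than Lewis. Averaged over days, 3 of 5 members were called higher in Brown Norway than in Lewis (12 arrays each), where 11.6% of all probes were, and 2 of 5 were called higher than in Fisher, where 15.8% were. Psmb9 and Psmb10 were called in neither on the mean over days. Psmb9 was lower in Brown Norway than in Fisher by -0.37 (-0.70 to -0.04, adjusted p = 0.0734), and this was called without Lewis PN1 ovalbumin a (adjusted p = 0.0415), with slide as a fixed term (adjusted p = 0.03) or as a random block (adjusted p = 0.0483) and with only the groups compared (adjusted p = 0.00522). Without Lewis PN1 ovalbumin a 4 of 5 members were called against Fisher, Psmb8, Tap1 and Tap2 higher in Brown Norway and Psmb9 lower. With all arrays, 2211 of the 14019 probes were called higher there and 2308 lower.

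Psmb8 was 2.03-fold higher in Brown Norway than in Lewis (1.02 ± 0.17, SE; 0.69 to 1.36, adjusted p = 1.82e-06) and 1.69-fold higher than in Fisher (0.76 ± 0.17, adjusted p = 0.000363). At PN14 the Brown Norway saline arrays read 11.87, 11.68, 11.65 and 11.71, the Lewis arrays 10.52, 10.55, 10.77 and 10.24 and the Fisher arrays 10.62, 11.08, 10.09 and 11.03. The Brown Norway arrays lay above all others. By day, the difference from Lewis was 1.11 at PN1 (adjusted p = 0.00263), 0.76 at PN7 (adjusted p = 0.0618) and 1.21 at PN14 (adjusted p = 0.00291). In Brown Norway against Lewis 2 of 5 members were called higher at PN1, 1 at PN7 and 2 at PN14, where 13.2%, 8.85% and 3.24% of all probes were.

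Tap1 was 1.74-fold higher in Brown Norway than in Lewis (0.80 ± 0.11, SE; 0.58 to 1.02, adjusted p = 2.5e-08) and 1.41-fold higher than in Fisher (0.50 ± 0.11, adjusted p = 0.000377). The PN14 saline arrays read 8.52, 8.25, 8.14 and 8.46 in Brown Norway, 7.46, 7.20, 7.79 and 6.95 in Lewis and 7.53, 7.90, 7.16 and 8.10 in Fisher. Again the Brown Norway arrays lay above the others, the lowest by a small gap over Fisher d. The difference from Lewis was called at each day, at 0.77, 0.63 and 0.99 for PN1, PN7 and PN14.

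Tap2 was 1.39-fold higher in Brown Norway than in Lewis (0.47 ± 0.13, SE; adjusted p = 0.00645). Its difference from Fisher was 0.31 (adjusted p = 0.0777), and 0.00531 was the adjusted p without Lewis PN1 ovalbumin a, an array that enters only through the shared estimate of the spread. Psmb10 differed between Brown Norway and Lewis by 0.19 on its main probe (-0.01 to 0.38, adjusted p = 0.17) and by 0.44 on the other (adjusted p = 0.00195), so its 2 probes disagreed on the call. Psmb9 differed from Lewis by 0.06 (-0.26 to 0.37) on the mean over days.

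Psmb9 went the other way from its neighbours at PN1. The Fisher PN1 saline arrays, given above, lay between 8.16 and 8.60, all above the Lewis and Brown Norway arrays, of which the highest read 7.91 and 7.82. Brown Norway was 2.03-fold lower than Fisher there (-1.02, adjusted p = 0.00269), the 1 member called at PN1, where 15.8% of all probes were called lower. Fisher was above Lewis by 0.82 (adjusted p = 0.0279), again the 1 member called, where 8.81% of all probes were called higher. On the mean over days Fisher and Lewis differed in 0 of 5 members, where 15.6% of all probes were called in either direction, the member nearest the threshold being Tap1 (0.30, adjusted p = 0.0563).

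Within single slides the called differences of Psmb8, Tap1 and Psmb9 kept their direction. On slide 5, Psmb8 at PN14 was higher in Brown Norway than in Lewis by 1.22 (adjusted p = 0.0145) and than in Fisher by 1.02 (adjusted p = 0.00871), and on slide 4 at PN7 it was higher than in Lewis by 0.97 (adjusted p = 0.00959). At PN1 the Psmb8 difference from Lewis was 1.41 on slide 1 (adjusted p = 0.000462) and 0.80 on slide 3 (adjusted p = 0.446). Tap1 differed from Lewis by 0.68 on slide 1 (adjusted p = 0.0412), 0.87 on slide 3 (adjusted p = 0.199), 0.73 on slide 4 (adjusted p = 0.0744) and 0.97 on slide 5 (adjusted p = 0.0473). Psmb9 at PN1 was lower in Brown Norway than in Fisher by -1.24 on slide 1 (adjusted p = 0.0051) and -0.80 on slide 3 (adjusted p = 0.317).

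In ovalbumin lungs the strains were compared on other arrays. On the mean over days 4 of 5 members were higher in Brown Norway than in Lewis, where 14.7% of all probes were called higher: Psmb8 by 1.11 (adjusted p = 2.15e-07), Psmb9 by 0.68 (adjusted p = 0.000625), Psmb10 by 0.39 (adjusted p = 0.00148) and Tap1 by 0.84 (adjusted p = 5.19e-09). For Tap1 the 12 Brown Norway arrays (7.80 to 8.88) did not overlap the 12 Lewis arrays (6.98 to 7.68). Tap2 differed by 0.16 (adjusted p = 0.423), and by 0.35 without Lewis PN1 ovalbumin a (adjusted p = 0.00193). Against Fisher 2 of 5 members were higher, Psmb8 by 1.09 (adjusted p = 3.94e-07) and Tap1 by 0.70 (adjusted p = 7.07e-07), where 12.2% of all probes were called higher. Psmb9 differed from Fisher by 0.38 there (adjusted p = 0.0696), and was called with slide as a random block (adjusted p = 0.0415). At PN7, where the Lewis ovalbumin levels of Psmb9 and Psmb10 were low, both were higher in Fisher than in Lewis, by 1.04 and 0.55, 2 of 5 members where 19.1% of all probes were called higher. Brown Norway was above Lewis there in 4 of 5 members, among them Psmb8 (1.29) and Psmb9 (1.28), where 18.8% of all probes were called higher.

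The genes that work with the members differed between Brown Norway and Lewis in saline by list. None of the 3 constitutive subunits was called (median 0.02). Tapbp, which lies in the same MHC, was lower in Brown Norway by -0.39 against Lewis and by -0.69 against Fisher. Of 14 class I heavy chains 10 were higher and 1 lower, with a median of 1.54. RT1-CE16 and RT1-A2 were detected on the 12 Brown Norway saline arrays and on none of the 12 Lewis arrays, at least 48.4-fold and at least 17.2-fold higher, and RT1-A1 was higher by 2.24. Class I genes are many, alike and different between strains, so the signal of 1 probe may come from several of them. Of 8 measured class II genes and neighbours 2 were higher (RT1-Ba by 1.70) and 3 lower (RT1-Db1 by -1.41). Of 12 measured regulators 5 were higher and none lower (Ifngr2 by 0.43 and Irf9 by 0.23). Of 12 interferon gamma induced genes 1 was higher, Cxcl9 (0.92), and 1 was lower, Ifi47, undetected on the 12 Brown Norway arrays and at least 6.22-fold lower. Of 16 type I interferon induced genes 2 were higher and 1 lower, and against Fisher none was higher and 7 were lower. The median of all probes was -0.00 in Brown Norway against Lewis.

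Markers of vessels and leukocytes moved with the strains in part. Of 5 measured endothelium genes 4 were higher in Brown Norway than in Lewis and 3 than in Fisher, among them Vwf (by 0.98 and 0.38) and Tek (by 0.57 and 0.48). Their mean log2 signal at PN14 lay between 11.87 and 11.97 in Brown Norway saline, against 11.47 to 11.62 in Lewis and 11.59 to 11.81 in Fisher, so that Brown Norway did not overlap either strain. Against Fisher 5 of 7 heart and skeletal muscle genes and 3 of 6 liver genes were lower, with medians of -1.37 and -1.46, all 3 B cell genes were higher (median 1.15), and of 7 lung epithelium genes 3 were higher and 2 lower. Between Brown Norway and Lewis saline lungs 2 of 10 T and NK cell genes and 2 of 3 B cell genes were higher, and of 5 macrophage and dendritic cell genes 1 was higher and 3 were lower. Against Fisher none of the T and NK cell genes was higher and 1 was lower (median -0.18). Of 5 markers of all leukocytes none was higher and 1 was lower in Brown Norway, against Lewis and against Fisher. The mean log2 signal over the 3 B cell markers at PN14 lay between 7.93 and 8.69 in Brown Norway saline, against 6.21 to 6.49 in Lewis and 5.88 to 7.17 in Fisher. None of the 3 was detected on all 71 arrays, and all 5 endothelium genes were. The part of these cells in the strain differences was not tested.

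**Figure D3:**
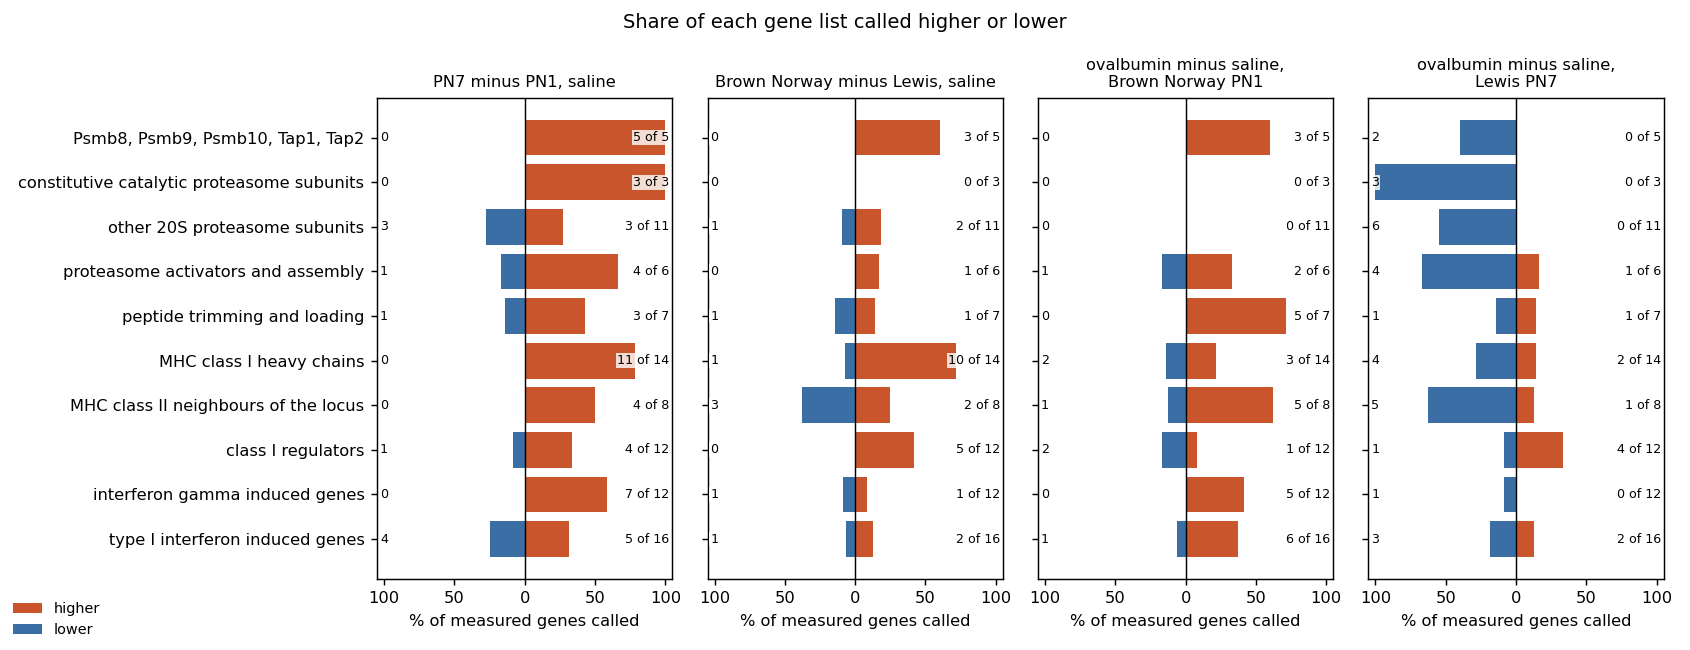
Percent of the measured genes of each list that were called higher (right) or lower (left) on the x axis, in 4 comparisons (one panel each), with the number called lower printed at the left edge and the number called higher of those measured at the right edge. From PN1 to PN7 in saline the members, the 3 constitutive subunits and 11 of 14 class I heavy chains are called higher, between Brown Norway and Lewis the constitutive subunits are not called, and in Lewis at PN7 after ovalbumin all 3 of them are called lower.

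The third comparison asked whether exposure to ovalbumin in utero changed the members. At PN1, 4 of 5 members were higher after ovalbumin on the mean over strains (12 arrays against 12), where 6.01% of all probes were called higher. Psmb9 was 1.58-fold higher (0.66 ± 0.16, SE; adjusted p = 0.00393), Psmb8 1.51-fold (0.60 ± 0.17, adjusted p = 0.0128), Tap1 1.31-fold (0.39 ± 0.11, adjusted p = 0.013) and Psmb10 1.29-fold (0.37 ± 0.10, adjusted p = 0.00823). Tap2 differed by 0.29 (0.02 to 0.56, adjusted p = 0.159). Without Lewis PN1 ovalbumin a, the same 4 were called with smaller differences, 0.52 for Psmb9 (adjusted p = 0.0139), 0.40 for Psmb8 (adjusted p = 0.0403), 0.34 for Tap1 (adjusted p = 0.034) and 0.29 for Psmb10 (adjusted p = 0.0295), and Tap2 differed by 0.10. The count was 1 with slide as a fixed term and 0 within slide 3, which held both exposures in each strain and on which the differences were 0.74 for Psmb9, 0.60 for Psmb8, 0.51 for Tap1 and 0.31 for Psmb10 (adjusted p from 0.199 to 0.413).

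Cell markers and class II genes moved in the same comparison. Of 10 T and NK cell genes 5 were higher after ovalbumin on the mean over strains (median 0.64), and 2 of 5 macrophage and dendritic cell genes were, among them Aif1 (by 0.43). The T and NK median was 1.47 in Lewis, whose ovalbumin array a had the high marker level given above, and 0.38 in Brown Norway. List values of this comparison were not refitted without that array. Of 8 class II genes and neighbours 5 were higher (RT1-Ba by 0.76), and of 7 trimming and loading genes 3 were (Tapbp by 0.39), where the median over all probes was 0.01. The part of these cells was not tested.

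Brown Norway held the called differences at PN1, in 3 of 5 members, where 13.7% of all probes were called higher. Psmb9 read 7.39, 7.82, 7.00 and 7.28 after saline and 8.49, 9.72, 8.18 and 8.41 after ovalbumin. All 4 ovalbumin arrays lay above all 4 saline arrays, by 2.51-fold in the mean (1.33 ± 0.28, SE; 0.78 to 1.88, adjusted p = 0.000144). Tap1, at 7.10, 7.91, 7.68 and 7.37 after saline and 7.89, 8.88, 7.80 and 7.85 after ovalbumin, overlapped and was 1.5-fold higher (0.59, adjusted p = 0.015).

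Psmb10 in Brown Norway was 1.36-fold higher at PN1 (0.45, adjusted p = 0.0436), with overlapping arrays. Psmb8 read 10.17, 10.47, 10.14 and 10.11 after saline and 10.66, 11.62, 10.54 and 10.92 after ovalbumin, without overlap. Its difference of 0.71 was not called (adjusted p = 0.0588), and was called without Lewis PN1 ovalbumin a (adjusted p = 0.0118), again through the estimate of the spread alone. Array b was the highest ovalbumin array for Psmb8, Psmb9 and Tap1, and without it and in turn without saline arrays a and d the count of called members ran from 1 to 4. Within slide 3 none was called, with differences of 1.505 for Psmb9 (adjusted p = 0.0778), 0.82 for Psmb8, 0.88 for Tap1 and 0.51 for Psmb10.

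In Lewis at PN1 none of the members was called, and 0.171% of all probes were. Psmb8 read 9.49, 9.53, 8.56 and 8.88 after saline and 11.99, 9.81, 9.42 and 9.70 after ovalbumin. Array a stood far above the other 3, and the difference was 1.11 with it (adjusted p = 0.0926) and 0.53 without (adjusted p = 0.494). Tap2 read 10.21 on array a and 7.99, 7.96 and 7.91 on the other 3, against 7.83, 7.79, 7.93 and 7.56 after saline. Its difference fell from 0.74 to 0.18 without array a. Psmb9 did not overlap, at 9.73, 8.25, 8.09 and 7.93 against 7.91, 7.84, 7.38 and 7.16, with a difference of 0.93 (adjusted p = 0.141), or 0.52 without array a (adjusted p = 0.523).

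In Fisher at PN1 the members differed by -0.29 to 0.09, none called, where 2.75% of all probes were called. Psmb9 read 8.35, 8.47, 8.60 and 8.16 after saline and 7.92, 8.11, 8.09 and 8.30 after ovalbumin, overlapping and in the mean lower. A difference between strains at PN1 alone was not tested. Averaged over the 3 days, the exposure effect on Psmb9 differed between strains (F test, adjusted p = 0.0264). Psmb9 was the 1 member of 5 called in that test, in which 15.8% of all probes were called. The call was lost without Brown Norway PN1 ovalbumin b or without Brown Norway PN7 ovalbumin a (adjusted p up to 0.0628). The other members had adjusted p-values from 0.335 to 0.877.

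**Figure D4:**
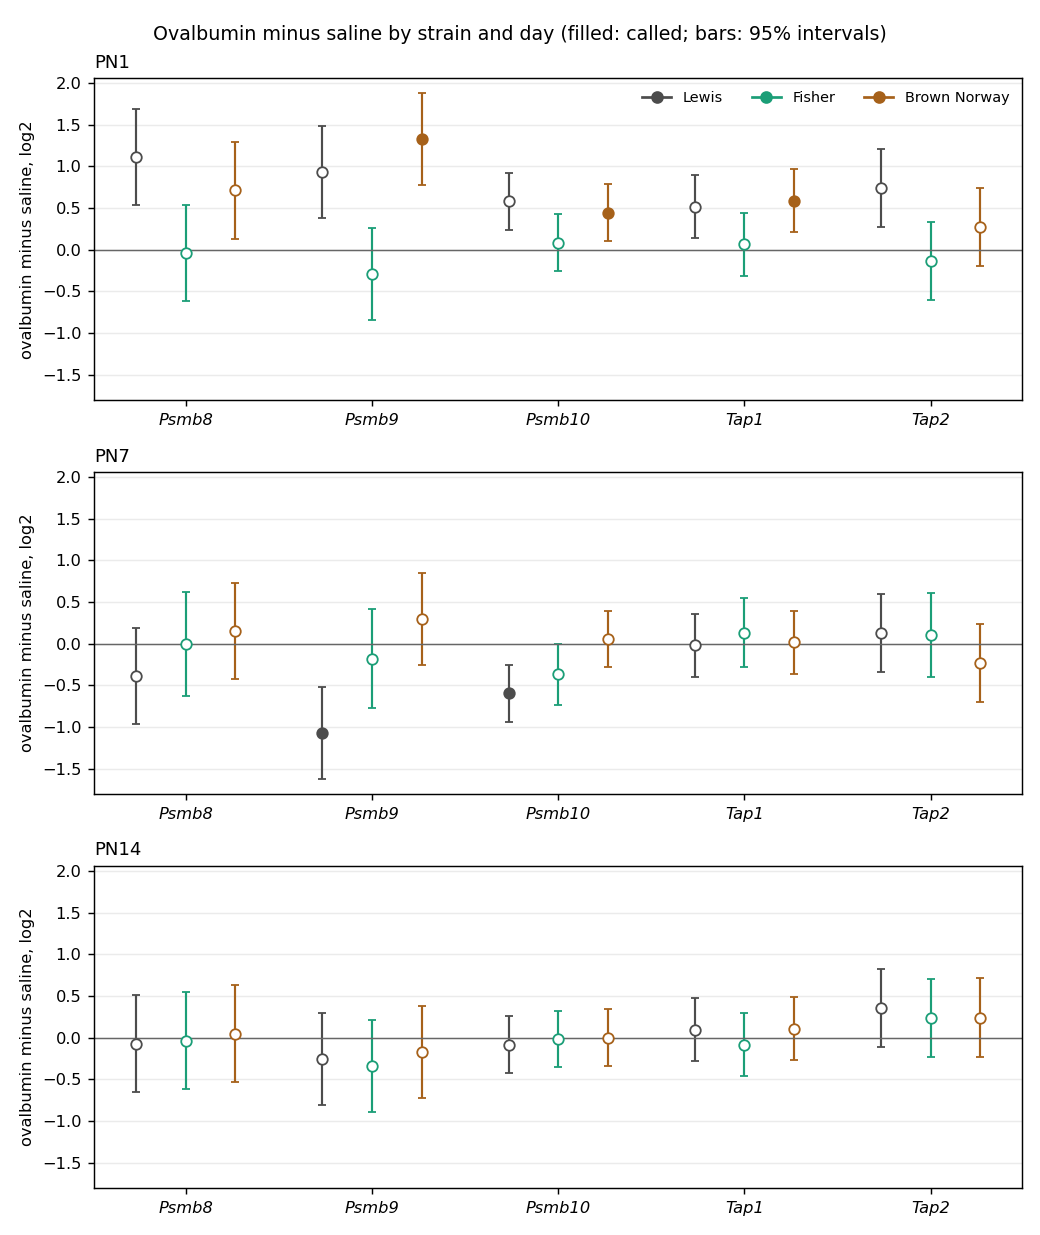
Ovalbumin minus saline differences on the log2 scale (y axis) of the 5 members (x axis) by strain, with one panel each for PN1, PN7 and PN14. Points are fitted differences, lines their 95% intervals and filled points were called: Psmb9, Psmb10 and Tap1 are filled above 0 in Brown Norway at PN1, Psmb9 and Psmb10 are filled below 0 in Lewis at PN7, and none is filled at PN14.

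Other genes of the pathway moved with the members in Brown Norway at PN1. Of the 7 trimming and loading genes 5 rose after ovalbumin (Calr by 1.02, Tapbp by 0.77, Pdia3 by 0.41), and none fell. Both measured PA28 subunits of the interferon-induced cap rose (Psme2 by 0.66, Psme1 by 0.37), and Psme4, another activator, fell by 0.52. None of the 3 constitutive subunits and none of the 11 other subunits of the barrel was called. Of 14 class I heavy chains 3 rose and 2 fell, with a median of 0.04. Of 8 class II genes and neighbours 5 rose, among them RT1-Ba (1.55) and RT1-Da (1.42), and 1 fell. Of 12 interferon gamma induced genes 5 rose and none fell (median 0.73, Gbp2 1.43, Icam1 0.92). Of 12 measured regulators 1 was called higher and 2 lower (median -0.00), and Irf1 rose by 0.55.

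Cell markers moved on those arrays. The mean log2 signal over 5 measured macrophage and dendritic cell markers was 6.96, 7.03, 6.92 and 6.90 on the Brown Norway PN1 saline arrays and 8.04, 7.89, 7.77 and 7.91 on the ovalbumin arrays, without overlap. Of these genes Aif1 rose by 0.89, and Mmp12 was at least 4.86-fold higher. Marco, which marks alveolar macrophages, was detected on 3 of the 71 arrays. The 3 B cell markers lay between 5.61 and 6.03 after saline and between 6.32 and 6.87 after ovalbumin, and the T and NK cell markers between 5.92 and 6.30 and between 6.17 and 6.82. Neutrophil markers went down, from 9.05 to 9.59 on the saline arrays to 8.23 to 8.66 on the ovalbumin arrays. The part of these cells in the members' difference was not tested.

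In Lewis at PN1 no gene of the pathway lists was called after ovalbumin, and 3 of 10 T and NK cell genes were higher, Cd3g by 3.05, Cd8a by 2.53 and Cd3d at least 4.61-fold. These differences include array a, whose T and NK cell marker level is given above and which read 9.74 over 5 markers of all leukocytes. They were not refitted without array a. On the PN1 saline arrays of Lewis the T and NK cell markers lay between 5.39 and 5.55.

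**Figure D5:**
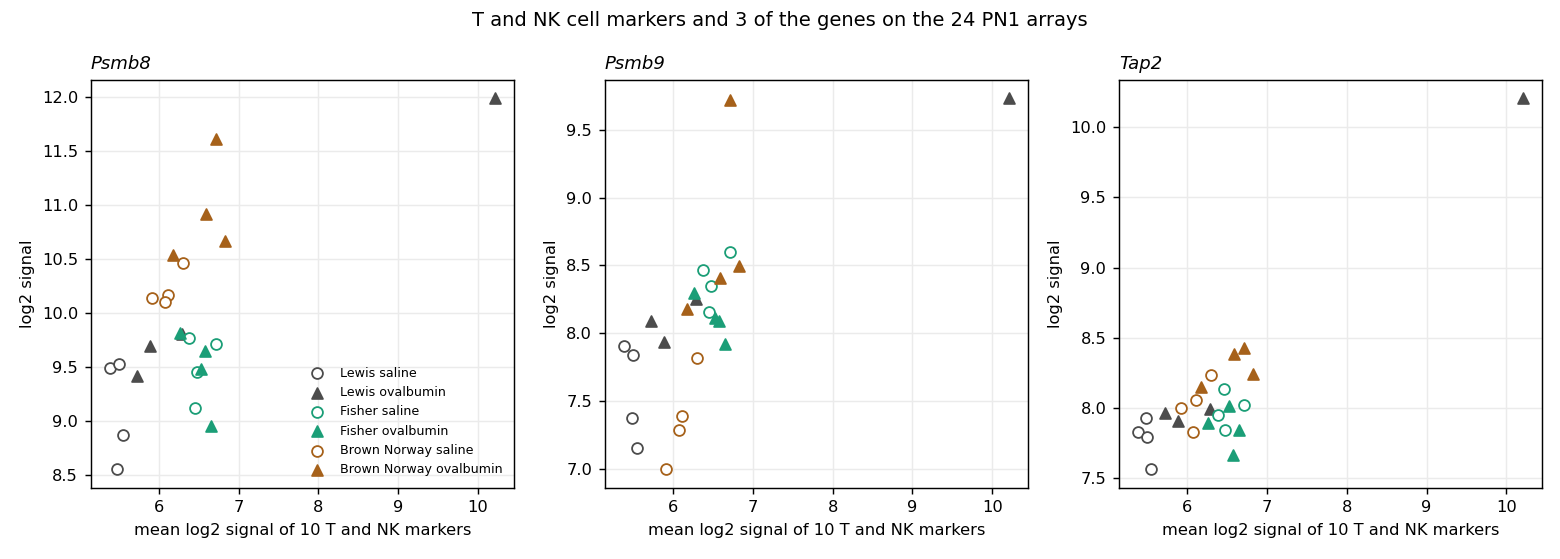
Log2 signal of Psmb8, Psmb9 and Tap2 (y axis, one panel each) on the 24 PN1 arrays against the mean log2 signal of 10 T and NK cell markers (x axis), by strain and exposure. Lewis PN1 ovalbumin a lies alone at 10.21 on the x axis, while the other 23 arrays lie between 5.39 and 6.82 and differ in Psmb8 and Psmb9 over that range.

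At PN7 the exposure difference ran the other way in Lewis. Psmb9 and Psmb10 were lower after ovalbumin, 2 of 5 members, where 16.9% of all probes were called lower. Psmb9 read 8.93, 8.74, 9.23 and 8.56 after saline and 7.80, 7.90, 7.26 and 8.19 after ovalbumin. The groups did not overlap, and the ovalbumin arrays were 2.11-fold lower (-1.08 ± 0.28, SE; -1.63 to -0.52, adjusted p = 0.00137). Psmb10 read 11.80, 11.78, 12.05 and 11.97 after saline and 11.36, 11.51, 11.02 and 11.34 after ovalbumin, again without overlap and 1.51-fold lower (-0.59 ± 0.17, SE; adjusted p = 0.00407). Its other probe differed by -0.46 (adjusted p = 0.0523).

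The remaining members did not share the Lewis PN7 difference in the test. Psmb8 differed by -0.39 (adjusted p = 0.317), Tap1 by -0.02 (-0.40 to 0.36) and Tap2 by 0.13 (-0.34 to 0.60). Both slides that held these groups could be read alone. Psmb9 was lower by -1.16 on slide 2 (adjusted p = 0.0441) and by -0.99 on slide 4 (adjusted p = 0.00422), and Psmb10 by -0.83 (adjusted p = 0.00861) and by -0.36 (adjusted p = 0.0964). Psmb8 was lower by -0.67 on slide 2 (adjusted p = 0.031) and by -0.11 on slide 4.

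The constitutive subunits were also lower in Lewis at PN7 after ovalbumin, 3 of 3 (Psmb5 by -0.34, Psmb6 by -0.49, Psmb7 by -0.33), as were 6 of the 11 other subunits of the barrel and 4 of 6 activators and assembly factors (Psme2 by -0.61 and Pomp, a chaperone of proteasome assembly, by -0.63). Of 8 class II genes and neighbours 5 were lower (RT1-Db1 by -1.24, Cd74 by -1.07), and of 14 class I heavy chains 2 were higher and 4 lower. Of 16 type I interferon induced genes 2 were higher, Oas1k by 2.76 and Oas1a by 2.63, and 3 were lower. Of 10 T and NK cell genes 1 was lower, Nkg7 by -1.06, and 3 of 6 neutrophil genes were higher. Of 7 lung epithelium genes 3 were higher and none lower, with a median of 0.33. The T and NK cell markers lay between 6.55 and 6.86 after saline and between 5.68 and 6.36 after ovalbumin, and the part of these cells was not tested.

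In Fisher and Brown Norway at PN7 none of the members was called, where 2% and 0.15% of all probes were. The Fisher Psmb10 arrays did not overlap, at 12.26, 12.22 and 12.20 after saline and 11.95, 11.99, 12.02 and 11.46 after ovalbumin, a difference of -0.37 (adjusted p = 0.327). Arrays of the same letter, a to c, were correlated in this comparison, though the labels give no pairing. A fit of those arrays alone with the letter as a block called 1 probe, where all arrays gave 281. With only these groups in the fit and no block the count was 0, and in each fit 0 members were called. On the mean over strains Psmb10 was called lower at PN7 (-0.30 ± 0.10, SE; adjusted p = 0.023; other probe -0.31, adjusted p = 0.0387), the 1 member of 5, where 11.8% of all probes were called lower. It was not called without Lewis ovalbumin c or without Fisher ovalbumin d, nor with slide as a fixed term (-0.20, adjusted p = 0.205).

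At PN14 none of the members was called on the mean over strains, where 0.0143% of all probes were, or in Lewis, Fisher or Brown Norway, where 0%, 0.0143% and 0.00713% were. With slide as a fixed term Psmb10 was called lower on the mean (-0.92, adjusted p = 0.0307) and in Lewis (-1.02, adjusted p = 0.0282), against -0.03 and -0.08 without it. Slide 6 held PN14 ovalbumin arrays only, so its term, also for Lewis, rests on Fisher PN14 ovalbumin d, which lay on slide 2. For Psmb10 that array read 11.33, and the nearest array of its group 12.01. The mean differences ranged from -0.26 for Psmb9 to 0.28 for Tap2 (0.01 to 0.55, adjusted p = 0.657). In Brown Norway Psmb8 read 11.87, 11.68, 11.65 and 11.71 after saline and 11.77, 11.78, 11.69 and 11.86 after ovalbumin. These were the highest Psmb8 groups of the 18, and they overlapped. The PN14 exposures shared no slide, so slide and exposure cannot be told apart within a slide at that day.

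The exposure effect, averaged over strains, was also tested for a difference between days, which does not test whether its sign changed. The exposure effect differed between days for 3 of 5 members, where 22.2% of all probes were called: Psmb9 (adjusted p = 0.00078), Psmb10 (adjusted p = 0.000809, and 0.00104 for its other probe) and Psmb8 (adjusted p = 0.0457). The Psmb8 value was 0.0892 without Lewis PN1 ovalbumin a. It was 0.0508 with the deposited values and with no background correction, and 0.0673 with no detection filter. With slide as a random block it was 0.0681, and with 4 arrays in doubt left out 0.0721. Tap1 (adjusted p = 0.129) and Tap2 (adjusted p = 0.437) were not called. The test of any exposure difference among the 9 called Psmb9 (adjusted p = 4.56e-05), Psmb10 (adjusted p = 0.00278) and Psmb8 (adjusted p = 0.0379), where 39.4% of all probes were called. For Psmb8 the adjusted p was 0.0965 with the 4 arrays in doubt left out, Lewis PN1 ovalbumin a among them, and 0.0539 with no detection filter.

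Across the 18 group means the members did not all share 1 pattern. As a description over means that share strains, days and slides, Pearson's r was 0.95 for Psmb8 and Tap1, 0.92 for Psmb9 and Psmb10 and 0.88 for Psmb8 and Tap2. It was lowest for Psmb9 and Tap1, at 0.66, although these genes face each other on the chromosome. Psmb8 and Psmb9, of the same complex and locus, stood at 0.76, and the 2 probes of Psmb10 at 0.92. Without Lewis PN1 ovalbumin a the value was 0.96 for Psmb8 and Tap1 and 0.91 for Psmb8 and Tap2.

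Among 9637 other genes, those nearest in pattern to Psmb8 over the same 18 means were RT1-Ba (r = 0.94), Irf1 (0.93) and RT1-CE15 (0.91), and those nearest to Tap1 were RT1-Ba (0.96), Tmem158 (0.93) and RT1-CE15 (0.91). RT1-Ba encodes a class II chain. Nearest to Psmb9 were Abhd8 (0.94), Lzts1 (0.92) and Pola2 (0.91), with Prf1, the perforin of cytotoxic lymphocytes, at 0.91. Nearest to Psmb10 were Gja4 (0.90), A3galt2 (0.89) and Pigu (0.89). Nearest to Tap2 were Dgka (0.91), Itgb7 (0.89) and Ptprcap (0.88). Without Lewis PN1 ovalbumin a these stood at 0.91, 0.93 and 0.90, and 2 of the 5 genes nearest to Tap2 remained among its nearest 5, with Itgb7 first. For Psmb8, Psmb9, Psmb10 and Tap1, 4, 3, 3 and 5 of the 5 remained.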

How the data were processed

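Per the file headers, the authors deposited mean bead signal intensities, raw and not background corrected, with detection p-values for 22523 probes on 71 arrays. The log2 values that the authors also deposited equal quantile-normalized log2 raw signals to within 5e-05. The submitters' processing notes name lumi with no version. From the raw signals, neqc of limma 3.58.1 in R 4.3.3 (offset 16) made background-corrected, quantile-normalized log2 values. A probe was tested if 3 or more arrays had a detection p-value below 0.01, which left 14019 probes. All comparisons came from 1 limma model of the 18 group means, moderated with a trend on 53 residual degrees of freedom, with Benjamini-Hochberg adjustment. The number of arrays limits the precision.

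The annotation gives 13793 probes 1 symbol, 0 several and 8730 none. Psmb10 has 2 probes, and the brighter is the main one. Members and gene lists were chosen with earlier results of these data known. Up to 3 called genes of lowest p are named from each list, and the nearest patterns come from the 5 highest correlations of each member. Promoters came from RefSeq (GRCr8). Psmb10's other probe, the deposited values, no background correction, other detection filters, slide as a term or alone, a replicate block, fewer groups and arrays left out were the alternatives. The labels do not say that replicate letters pair arrays. Only in Fisher PN7 were the deviations of all same-letter arrays positively correlated, at 0.351, 0.433 and 0.340. The a arrays and the b arrays there also shared a slide, and the a arrays of Lewis PN14 reached 0.349. Further software was data.table (version 1.17.8), Python 3.11.15, matplotlib 3.10.9, numpy 2.4.6 and pandas 2.3.3.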

Additional observations from a re-analysis of the deposited data

Results flagged for a closer look

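With 4 arrays a group, an array was listed where its gap to the nearest of the others took up more of the group's range than Dixon's critical value for 95% allows. This held in 15 of 102 combinations of probe and group, 13 of 85 for the main probes, while chance lists about 1 in 20. In Lewis PN1 ovalbumin, array a was the highest for Psmb8 (0.848 of the range) and Tap2 (0.9648). In Brown Norway PN1, saline array b was the highest for Psmb8 (0.8396) and Psmb10 (0.8704), and ovalbumin array b for Tap1 (0.9198). In Brown Norway PN7 saline, array b was the lowest for Psmb8 (0.9162). In Brown Norway PN14, Psmb9 was highest on saline array d (0.8653) and lowest on ovalbumin array c (0.9337). The rest were Fisher arrays, each the lowest of its group. For Psmb10 they were PN1 saline d (0.8449), PN1 ovalbumin a (0.837, and 0.9039 on its other probe), PN7 ovalbumin d (0.8734) and PN14 ovalbumin d (0.8801, and 0.8569 on its other probe). For Tap2 it was PN14 saline d (0.8711).

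The exposure effect on Psmb9 differed between strains over the 3 days (adjusted p = 0.0264). At PN1 Brown Norway gave 1.33, Lewis 0.93 and Fisher -0.29, and at PN7 Lewis gave -1.08. The call was lost without Brown Norway PN1 ovalbumin b or without Brown Norway PN7 ovalbumin a (adjusted p up to 0.0628). Averaged over strains, the effect differed between days for Psmb9 (adjusted p = 0.00078), Psmb10 (adjusted p = 0.000809, other probe 0.00104) and Psmb8 (adjusted p = 0.0457). The Psmb8 call was lost without Lewis PN1 ovalbumin a and in the other settings given above.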

How the results depend on the processing

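The 2930 values under other settings include F tests. Of these values 2772 stayed on their side of the threshold, 77 were no longer called, 78 became called and 3 reversed. A change of sign was counted as a reversal only where either fit called the value, and F tests have no sign. Counts of members in this section are of calls in either direction. All 3 reversals came with slide as a fixed term in the PN14 minus PN7 step in ovalbumin lungs, for Psmb10 in Lewis (-0.19) and on the mean over strains (-0.49) and for Psmb9 on the mean (-0.22). In that setting the PN14 ovalbumin arrays were adjusted through Fisher PN14 ovalbumin d alone, the array of those groups that was not on slide 6. The same setting called 1 member in place of 4 for exposure at PN1 on the mean over strains, 0 in place of 1 at PN7, and 1 in place of 0 at PN14 on the mean and in Lewis. It called 3662 probes in place of 6585 from PN1 to PN7, 3502 in place of 6314 from PN7 to PN14, 790 in place of 1529 and 1955 in place of 3175 for the mean exposure effect at PN1 and PN7, and 1572 in place of 2 at PN14. With only the groups compared in the fit, the counts became 4 (from 2) for Brown Norway against Fisher, 1 (from 0) for Fisher against Lewis, for the step from PN7 to PN14 and for the age profiles between strains, and 2 (from 4) for exposure at PN1. Within slide 3, exposure at PN1 gave 0 members in Brown Norway (from 3) and 0 on the mean (from 4), with 700 probes in place of 3684 and 35 in place of 1529. Within slide 4, and with the other probe of Psmb10, 1 member in place of 2 was called for exposure in Lewis at PN7, where slides 2 and 4 gave 2880 and 1926 probes in place of 4938. With 4 arrays in doubt left out, which besides Lewis PN1 ovalbumin a were saline arrays (Fisher a at PN1, Fisher c and Lewis d at PN7), the counts became 4 (from 2) for Brown Norway against Fisher, 1 (from 0) for Fisher against Lewis and 2 (from 1) for exposure at PN7, and Psmb8 at PN1 was not called on the mean (0.39, adjusted p = 0.0564). Detection on at least 36 arrays gave 1 (from 0) for Fisher against Lewis. The cause was not tested. A replicate block of the letters over all groups changed no call, and a fit of Fisher PN7 arrays a to c with that block called 1 probe, where all arrays without it gave 281.

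With each of the 71 arrays left out in turn, 19623 of 19880 values stayed on their side of the threshold. No value that either fit called changed its sign. The count of members called was 3 throughout for Brown Norway against Lewis, 5 for PN7 against PN1, 4 for exposure at PN1 on the mean and 2 for exposure in Lewis at PN7. It ran from 2 to 4 for Brown Norway against Fisher and from 0 to 1 for the age profiles between strains (both by Lewis PN1 ovalbumin a), from 0 to 2 for Fisher against Lewis (by 10 arrays), and from 0 to 1 for the exposure effect between strains (by Brown Norway PN1 ovalbumin b and PN7 ovalbumin a). It ran from 1 to 4 for exposure in Brown Norway at PN1, from 0 to 3 in Lewis at PN1 (by saline b and ovalbumin c and d), from 0 to 1 on the mean at PN7, from 2 to 3 for the effect between days and from 2 to 4 for any exposure effect. The single-slide fits of Lewis PN14 against PN1 and of Lewis PN7 on slide 2, the Fisher block and the nearest patterns without Lewis PN1 ovalbumin a were chosen after seeing the data.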
